A study of Oryzias melastigma with 12 samples.

Results

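Larvae of marine medaka (Oryzias melastigma) kept for 7 days in 2 nM hexabromocyclododecane (HBCD) were compared with larvae kept in the solvent alone. Of the 12 single-dye (Cy3) Agilent arrays in the series, 6 belong to this comparison: the 3 arrays labelled control and the 3 arrays labelled Medium, chosen by their labels. The control larvae were kept in dimethyl sulfoxide (DMSO) at 1 part in 30000 of water, and the exposed larvae in the same solvent with 2 nM HBCD. Both groups were at most 24 hours past hatching at the start, were held as 100 larvae to a dish, and gave 30 pooled larvae to each RNA sample. A sample is therefore a pool of whole animals, so fewer cells of a type and less RNA per cell cannot be told apart. The labels give neither the strain nor the sex of the larvae. They count 3 replicates of each treatment by dish and do not say outright that each pool came from its own dish. The p-values therefore measure the spread between samples. In the slide-by-slide contrasts this is only the spread between samples of the same group and slide.

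Marine medaka is a coastal fish on which the toxicity of pollutants in seawater is often tested, and its larvae are exposed while organs such as the liver, heart and thyroid are still maturing. HBCD is a brominated flame retardant that was used mainly in polystyrene foam, dissolves in fat and persists in sediment and animals. In other vertebrates it has been studied for induction of xenobiotic-metabolizing enzymes, interference with thyroid hormone and oxidative stress. None of these pathways could be followed by name here, because 0 of the 26429 custom probes were paired with a gene in the files or tables used, and no probe sequence was used here. Results are therefore given by probe number and by group of probes, at most 2 probes in each direction of a comparison, with 1 more noted where it arises. The identity of a tissue could not be checked against marker genes for the same reason.

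The 2 groups shared no slide. Each slide of 4 arrays had its own scan. The 3 control arrays lay on slide 1 together with replicate 3 at 0.2 nM. Replicates 2 and 3 at 2 nM lay on slide 2 with replicates 1 and 2 at 0.2 nM. Replicate 1 at 2 nM lay on slide 3 with the 3 arrays at 20 nM. Exposure and slide therefore cannot be told apart between these groups by any array of their own, but changes present on both 2 nM slides can be told from changes on one. Both 2 nM slides are set against the same controls on slide 1. A change on both thus cannot be told apart from an offset of slide 1. Levels are log2 intensities over the 75th percentile of the array, and 11910 probes bright enough in at least 1 of the 4 groups of the series were tested (45.1% of all).

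The arrays of a slide lay closer together than the arrays of the 2 nM group did across slides. The median absolute difference over tested probes was 0.094, 0.096 and 0.12 on the log2 scale between pairs of control arrays and 0.16 between the pair of 2 nM arrays on slide 2. It was 0.26 and 0.24 between the 2 nM array on slide 3 and those on slide 2. These last values were as large as those between control and 2 nM arrays, which ran from 0.21 to 0.26. The median SD over 3 arrays was accordingly 0.19 at 2 nM and 0.090 in the controls. Repeat spots within an array had a median SD of 0.078 to 0.10 on these 6 arrays, over the 2215 tested probes that were printed 5 times.

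Over all 3 arrays, 325 probes differed from control at 2 nM (2.73% of those tested, limma adjusted p under 0.05), of which 289 rose (2.43%) and 36 fell (0.302%). All 325 had the 3 exposed arrays beyond the 3 control arrays, a separation shown by 3356 tested probes (28.2%). Set against control slide by slide, all 325 also had the same sign on slide 2 and on slide 3, which the choice of the probes favours. A call on each slide was less common: 123 of the 325 passed on both slides, 111 that rose and 12 that fell. Another 186 passed on slide 2 and not on slide 3, with no difference shown between the slides, 2 passed on slide 2 and did differ between slides, and 14 passed on neither slide. No probe of the 325 passed on slide 3 alone (0 probes). The slide 3 value rests on 1 array, with a median SE of 0.17 on the log2 scale against 0.13 on slide 2, so a miss on slide 3 is no sign that the probe was level there. Leaving out 1 control array (replicates 1, 2 and 3) brought the count of 325 to 113, 36 and 121. It fell to 111 and 142 on leaving out 2 nM replicates 2 and 3 and to 205 on leaving out 20 nM replicate 3, and it was 787 (358 higher, 429 lower) when 2 nM replicate 1 was left out. With slide as a fixed block the count was 1, a probe outside the 149 described next, and with slide as a random block it was 24. The fixed block leaves 2 nM replicate 1 out of the contrast, since slide 3 holds no control or 0.2 nM array. It sets 2 nM against 0.2 nM on slide 2 and adds 0.2 nM against control on slide 1, where 0.2 nM is 1 array.

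Changes on both 2 nM slides were mostly rises. Of 11909 probes with a value on both slides, 149 (1.25%) were called against control on slide 2 and on slide 3 in the same direction, 133 higher (1.12%) and 16 lower (0.134%). Both contrasts use the same 3 control arrays, so this count has no test of its own. Those arrays all lie on slide 1, and an offset of that slide would enter both contrasts in the same direction. The 133 probes that rose had a median log2 difference of 1.11 on slide 3 and 0.92 on slide 2, and 51 of them were at least 2-fold higher on each slide. The 16 that fell had medians of -0.90 and -0.58, and 2 were at least 2-fold lower on each slide. For 8 of the 149, all of them higher, the 2 slides also differed from each other in size. Without control replicates 1, 2 and 3 the count was 87, 56 and 78. It was 88 without 2 nM replicate 2, 241 without 20 nM replicate 1, and 255 without 0.2 nM replicate 1 or 2, which enter through the shared spread. Scaling to the median of the array gave 121 higher and 53 lower, so that 69.5% of the calls were rises where the 75th percentile gave 89.3%.

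**Figure D1:**
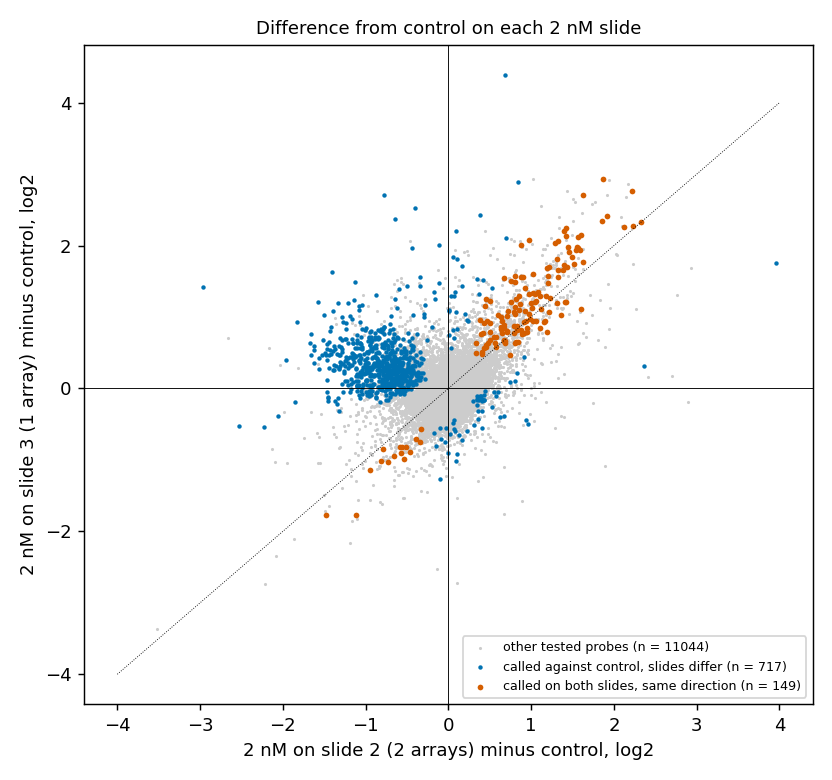
Difference from the control mean (log2) of each tested probe on slide 3 (1 array of 2 nM, vertical axis) against slide 2 (2 arrays of 2 nM, horizontal axis); the dotted line marks equal differences. The 149 probes called on both slides lie along it, while the 717 called against control whose slides differ lie mostly at the upper left, lower on slide 2 and near or above control on slide 3. Both sets were chosen by the plotted values, which favours their place along or off the line.

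The probes named by rule were limited to those well above background on every control and 2 nM array. Among these, probe CUST_10003_PI414333748 headed the rises called over the 3 arrays and on both slides, ranked by the smaller of its slide differences. Its level was -0.61, -1.94 and -1.0 on control replicates 1, 2 and 3 (log2 over the 75th percentile). It was 0.96, 0.27 and 0.57 on 2 nM replicates 1, 2 and 3. Every exposed array lay above every control array, which the choice of the probe favours. Such a separation held for all 149 probes called on both slides, and for 28.2% of all tested probes. The controls spread widely (SD 0.68, n = 3, against 0.34 at 2 nM). The difference from control was 2.14 (SE 0.41) on slide 3 and 1.60 (SE 0.32) on slide 2 on the log2 scale, or 4.42-fold and 3.04-fold, with limma adjusted p = 0.0365 and 0.0137. The slides differed from each other by 0.54 (SE 0.43, limma adjusted p = 0.48). On the same slide 2, the 0.2 nM arrays stood at 0.81 and 0.79, above both 2 nM arrays there. The 0.2 nM array on the slide of the controls was at -0.073, above all 3 controls and below all 3 arrays at 2 nM. The 20 nM arrays on slide 3 were at 0.78, 1.03 and 0.89, on either side of the 2 nM array there. With slide as a fixed block the difference was 0.73 (limma adjusted p = 0.734). With slide as a random block it was 1.46 (limma adjusted p = 0.258), and without control replicate 2 it was 1.40 (limma adjusted p = 0.0656).

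CUST_18917_PI414333748 was the second such rise and moved alike. The controls were at -1.96, -1.82 and -1.20 and the 2 nM arrays at 0.28, -0.23 and 0.00012, replicates 1 to 3 in order, with no overlap. The difference was 1.94 (SE 0.27) on slide 3 and 1.54 (SE 0.21) on slide 2, or 3.83-fold and 2.91-fold, with limma adjusted p = 0.0129 and 0.00275. The 0.2 nM arrays on slide 2 were at -0.0067 and 0.093, within or just above the range of the 2 nM arrays there, and the 0.2 nM array on slide 1 was at -0.90, above the controls. Slide as a fixed block gave 0.60 (limma adjusted p = 0.663), and as a random block 1.33 (limma adjusted p = 0.165). Both rises thus had 2 nM levels close to those of the 0.2 nM arrays that shared slide 2, and slide and exposure cannot be told apart in them from the control and 2 nM arrays alone.

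Among the 8 falls that met the same terms, CUST_24709_PI414333748 ranked first and set the 2 nM arrays apart from the 0.2 nM arrays of the same slide. The controls were at -0.97, -0.86 and -0.98, and the 2 nM arrays at -2.08, -2.00 and -1.78 (replicates 1, 2 and 3). The 0.2 nM arrays were at -0.95 and -0.96 on slide 2 and -1.02 on slide 1, close to the controls on both slides. The 20 nM arrays were at -2.15, -1.52 and -1.81, around the 2 nM array of slide 3. The 2 nM difference from control was -1.14 (SE 0.21) on slide 3 and -0.95 (SE 0.17) on slide 2, with limma adjusted p = 0.0331 and 0.00768. With slide as a fixed block the difference was -1.02 (limma adjusted p = 0.358), so the call was not kept. That value leaves out 2 nM replicate 1 and passes through the 0.2 nM arrays. It is thus another contrast than the -1.02 over all 3 arrays. With slide as a random block the difference was -1.04 (limma adjusted p = 0.0611). Under normexp with the backgrounds as scanned the fall shrank to -0.073 (limma adjusted p = 0.836). With the odd backgrounds replaced it was -0.66 (limma adjusted p = 0.00602).

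CUST_4838_PI414333748, a bright probe, was the second such fall. Its level was 3.96, 3.91 and 3.91 in the controls and 2.91, 2.95 and 3.27 at 2 nM (replicates 1, 2 and 3), without overlap. The difference was -1.02 (SE 0.19) on slide 3 and -0.82 (SE 0.15) on slide 2, with limma adjusted p = 0.0359 and 0.0101. At 0.2 nM it was 3.48 and 3.54 on slide 2 and 3.80 on slide 1, between control and 2 nM in each case. At 20 nM it was 2.79, 3.18 and 2.70, on either side of the 2 nM array on slide 3. Slide as a fixed block gave -0.52 (limma adjusted p = 0.607), and as a random block -0.78 (limma adjusted p = 0.16). Over all 3 arrays the log2 differences of these 4 probes were 1.78, 1.67, -1.02 and -0.88 in the order described. Each probe was printed once, so its level on an array is 1 spot.

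**Figure D2:**
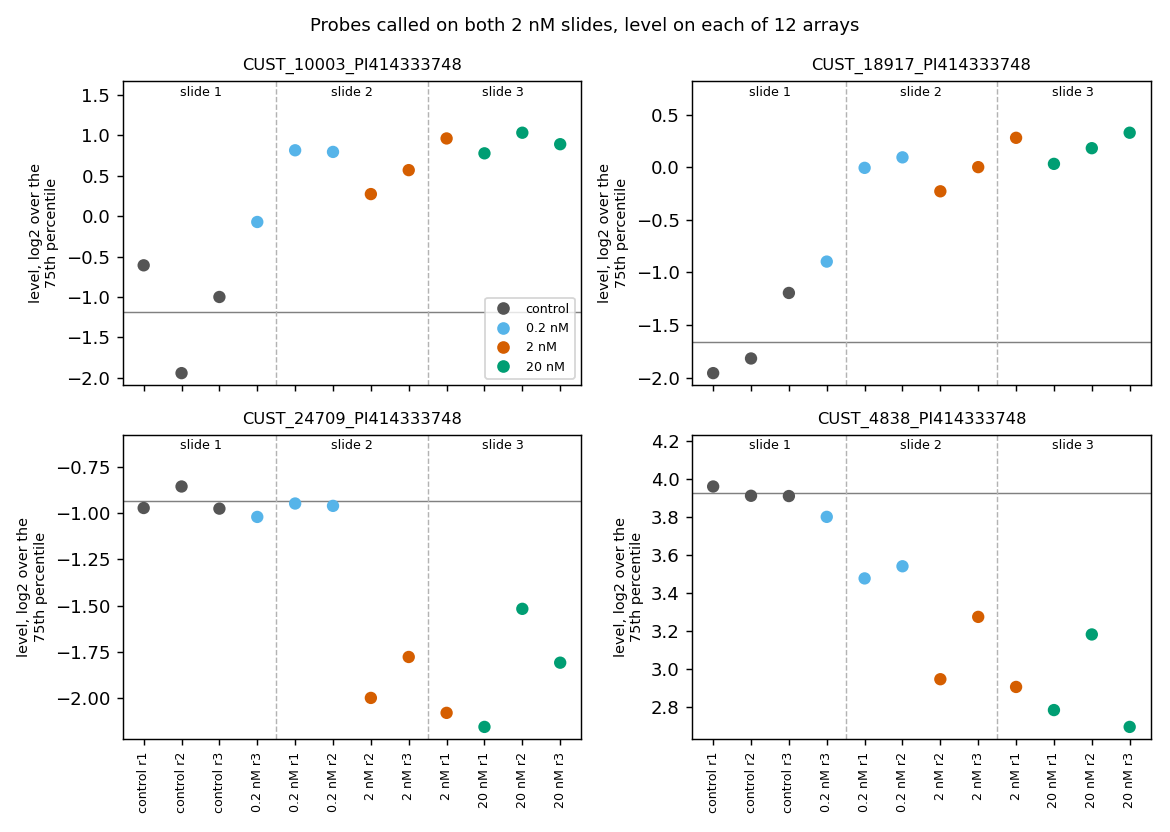
Level (log2 over the 75th percentile of the array) of the 4 probes named for a change on both 2 nM slides, on each of the 12 arrays ordered by slide, with the control mean as a horizontal line; each point is 1 array. The 3 arrays at 2 nM stand clear of the 3 controls for all 4 probes, which their choice favours. The same held for all 149 probes called on both slides. CUST_24709 is at -0.95 and -0.96 on the 0.2 nM arrays of slide 2 beside -2.00 and -1.78 on the 2 nM arrays there.

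The 133 rises and 16 falls were also set beside the other arrays of the same slides, as a description with no test. The medians that follow are relative to the control mean, and the 2 nM medians are those by which the probes were chosen. For the 133 rises the median was 1.11 on 2 nM replicate 1 and 0.93 and 0.91 on replicates 2 and 3. It was 0.81 and 0.58 on the 0.2 nM arrays of slide 2 (25th to 75th percentile 0.42 to 1.27 and 0.30 to 1.03), 0.29 on the 0.2 nM array of slide 1 and 0.99 to 1.00 on the 20 nM arrays. For the 16 falls it was -0.90 on 2 nM replicate 1 and -0.57 and -0.62 on replicates 2 and 3. There the 0.2 nM arrays of slide 2 were at -0.21 and -0.11 (25th to 75th percentile -0.45 to -0.11 and -0.41 to -0.071) and that of slide 1 at -0.13, and the 20 nM arrays lay between -0.50 and -0.43. Over all tested probes the medians on these 9 exposed arrays ran from -0.059 to 0.062. All these values share the same control arrays. With slide as a fixed block, which leaves out 2 nM replicate 1, the median difference was 0.61 for the 133 and -0.55 for the 16. Over the 3 arrays without a block it was 1.00 and -0.69. With the fixed block 0 of the 149 passed in limma (1070 of all tested probes had an unadjusted p under 0.05). With slide as a random block the medians were 0.90 and -0.67, and 23 of the rises and 1 of the falls passed.

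The control levels of these probes are given as a description. A probe dim in the controls was tested only if another group had it well above background on all its arrays, which favours a low control level among rises. The median control level was -2.19 for the 133 rises and -1.85 for the 16 falls, against -0.22 over all tested probes. In the controls, 97 of the 133 rises lay under the 75th percentile of the array (72.9%, against 52.7% of all tested probes). Of the rises, 79 were well above background on all 6 arrays and 23 on no control array. Of the falls, 10 were well above background on all 6 and 2 on no array at 2 nM. Among all 11910 tested probes, 10639 were well above background on all 6, 134 on no control array and 90 on no array at 2 nM. Probes printed 5 times made up 14 of the 133 and 3 of the 16, 11.4% together, against 18.6% of all tested probes. For 11 of these 17 probes no single spot of the 2 nM arrays overlapped any spot of the control arrays. Over all 2215 tested probes printed 5 times this held for 76 (3.43%), and the choice of the 17 favours it.

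With the probes ranked by control level into 4 classes of 2977, the dimmest class held 152 of the calls over 3 arrays (5.11%) and 81 of the calls on both slides (2.72%). The other 3 classes held 1.81% to 2.08% and 0.739% to 0.806%. On slide 3 the median difference from control was 0.14 in the dimmest class and -0.079 in the brightest. On slide 2 it was between 0.017 and 0.073 in all 4 classes. The classes were formed on the control arrays that also enter the differences, and the dimmest class also holds probes that were tested only because an exposed group had them well above background. The part of either in the share of calls in that class was not tested.

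**Figure D3:**
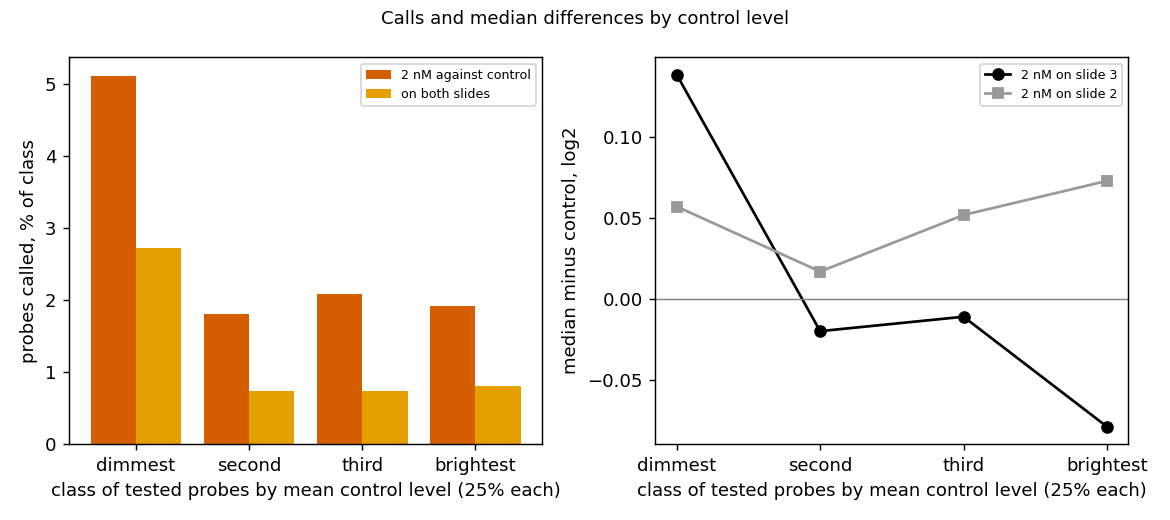
Left, percent of the tested probes of each of 4 equal classes of mean control level called over the 3 arrays at 2 nM and called on both slides; right, median log2 difference from control of the same classes on slide 3 and slide 2. The dimmest class has the most calls (5.11% and 2.72%), and its median on slide 3 is 0.14.

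A second set of probes differed between the slides of the 2 nM group itself. With no control array in the contrast, 959 of 11909 probes (8.05%) differed between slide 3 and slide 2, 822 higher on slide 3 (6.9%) and 137 lower (1.15%). This sets 1 array against a pair, and dish, slide and array cannot be told apart in it. Scaling to the median shifted the median of all tested probes in this contrast from -0.083 to -0.34 on the log2 scale and turned the split, to 659 higher and 2650 lower on slide 3. The count was 1473 (1011 higher, 462 lower) without 20 nM replicate 1, and 700 to 904 without any other single array that left the contrast in place, 0.2 nM replicate 3 excepted, where it was 959.

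Against control, slide 2 gave 1616 calls (13.6%), 663 higher (5.57%) and 953 lower (8%). Slide 3 gave 309 (2.59%), 247 higher (2.07%) and 62 lower (0.521%). Of the 1616 on slide 2, 662 also differed between the slides, 620 of the falls and 42 of the rises. Over all tested probes 8.05% differed between the slides. The same slide 2 arrays enter both contrasts, so a call on slide 2 favours a call between the slides. Nothing is read from this overlap. Scaling moved these splits: 41.0% of the slide 2 calls were rises, or 26.1% with the percentile over probes detected on all 12 arrays. On slide 3 79.9% were rises, or 15.9% with scaling to the median (224 higher, 1184 lower), 62.2% with quantile normalization and 61.8% with the deposited log2 values. Without control replicates 1, 2 and 3 the count on slide 2 was 1067, 907 and 978 and on slide 3 146, 97 and 138. Without 2 nM replicate 2 the count on slide 2 was 836, and without 20 nM replicate 1 that on slide 3 was 630.

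The largest of these sets held 580 probes that were lower than control on slide 2, not called on slide 3 and different between the slides (4.87% of those tested). Their median difference from control was -0.76 and -0.79 on the 2 nM arrays of slide 2 and 0.27 on that of slide 3. These 2 nM values are those by which the probes were chosen, as in the sets that follow, so the gap between them is built in. The 0.2 nM arrays of slide 2 had medians of -0.78 and -0.76, the same size as the 2 nM arrays beside them, and the 0.2 nM array of slide 1 had -0.11. The 20 nM arrays of slide 3 had 0.19, 0.20 and 0.27. For these probes the 0.2 nM and 2 nM arrays of slide 2 had like medians, as had the 2 nM and 20 nM arrays of slide 3. Neither slide holds other concentrations, and the part of slide was not tested. A further 33 probes were higher than control on slide 2 only and differed between slides. Slide 3 alone held 45 higher and 18 lower probes of this kind, the 45 with a median of 1.35 on 2 nM replicate 1 and 0.41 to 0.63 on the 20 nM arrays of that slide.

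Opposite changes were also called. Against control, 40 probes were higher on slide 3 and lower on slide 2, with medians of 0.83 and -0.88, the values by which they were chosen. The 0.2 nM arrays of slide 2 were at -0.96 and -0.86 for the same probes and the 20 nM arrays at 0.55 to 0.70, each on the side of the 2 nM arrays of its slide. The 0.2 nM array of slide 1 had a median of -0.18, below those of the controls beside it (-0.016 to 0.018). None of these 40 was among the 325 called over the 3 arrays (0 probes). The reverse was called for 1 probe, CUST_14354_PI414333748, which is named after its values were seen: its level was -2.18, -2.23 and -2.26 in the controls and -2.73, -1.95 and -1.88 on 2 nM replicates 1, 2 and 3. The 0.2 nM arrays were at -1.87 and -1.99 on slide 2 and at -2.57 on slide 1, the last below every control, and the 20 nM arrays at -2.58, -2.44 and -2.55. It differed between slides by -0.82 (SE 0.11, limma adjusted p = 0.00298).

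**Figure D4:**
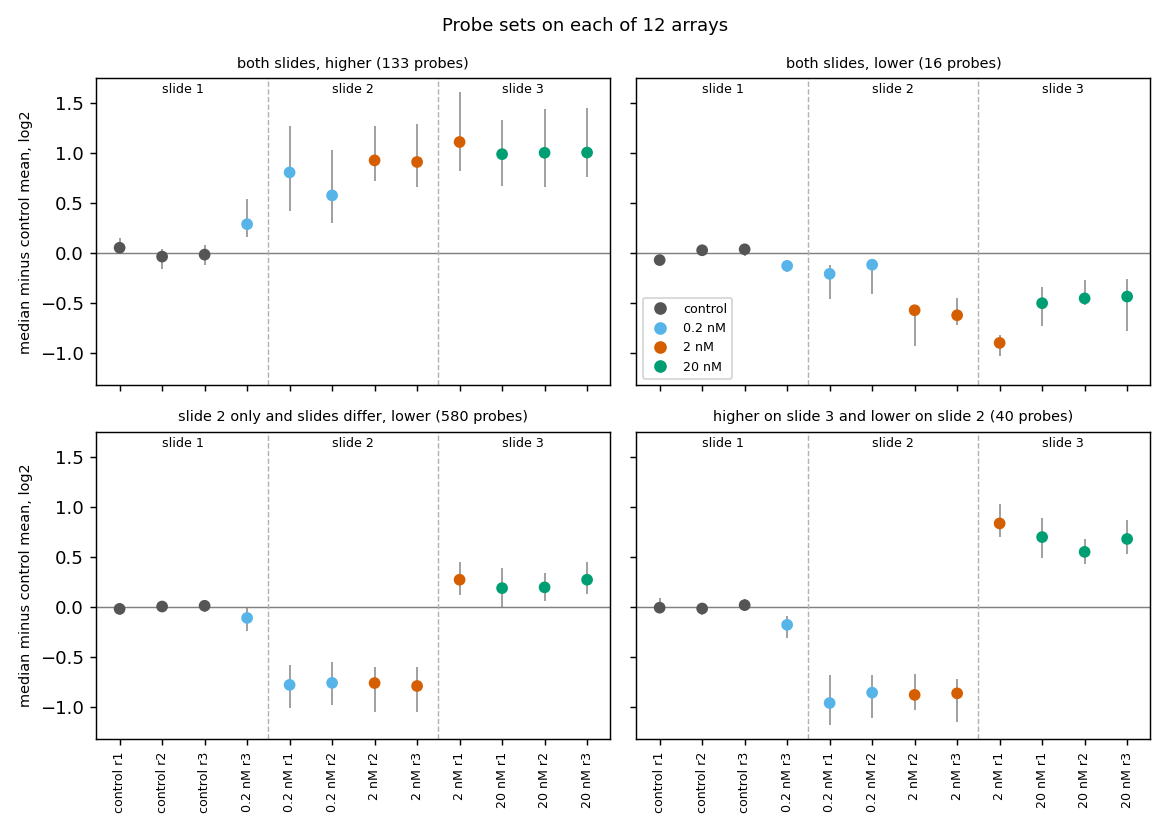
Median difference from the control mean (log2) of 4 sets of probes on each of the 12 arrays ordered by slide. Bars run from the 25th to the 75th percentile of the probes. The 2 nM values are those by which each set was chosen. In the lower panels, the 580 and 40 probes lower on slide 2, the 0.2 nM arrays of slide 2 lie with the 2 nM arrays of slide 2 and the 20 nM arrays with the 2 nM array of slide 3; in the panel of the 16 falls on both slides, the 0.2 nM arrays of slide 2 stay at -0.21 and -0.11 while the 2 nM arrays there are at -0.57 and -0.62.

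The next probes were well above background on every control and 2 nM array. Among such probes called against control on exactly 1 slide, the greatest differences between the 2 nM slides were of more than 1 kind. CUST_191_PI414333748 was at -2.40, -2.39 and -2.25 in the controls and at -0.39, -2.79 and -2.78 on 2 nM replicates 1, 2 and 3. Replicate 1 stood apart from all other 11 arrays of the series, since the 0.2 nM arrays were at -2.56, -2.15 and -2.03 and the 20 nM arrays, of its own slide, at -2.47, -2.35 and -2.60. The slides differed by 2.40 (SE 0.18, limma adjusted p = 0.000422), and the rise on slide 3 was 1.96 (SE 0.17, limma adjusted p = 0.00485). That rise is thus 1 spot on 1 array.

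CUST_21862_PI414333748 lay low on slide 2 and high on slide 3 in both groups of each slide. It was at 0.44, 0.41 and 0.63 in the controls, at -1.17 and -0.71 on the 2 nM arrays of slide 2 and at 1.30 on that of slide 3. The 0.2 nM arrays of slide 2 were at -0.83 and -0.49, and the 20 nM arrays of slide 3 at 0.98, 0.79 and 1.02. On slide 1 the 0.2 nM array was at 0.062, below all 3 controls. The slides differed by 2.23 (SE 0.22, limma adjusted p = 0.000931), the fall on slide 2 was -1.43 (SE 0.16, limma adjusted p = 0.00137), and the value on slide 3 was 0.80 (SE 0.21, limma adjusted p = 0.0835). Over the 3 arrays the 2 nM difference from control was -0.69 (SE 0.50, limma adjusted p = 0.475).

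In the other direction, CUST_55_PI414333748 was at -0.90, -1.11 and -0.78 in the controls, at -0.81 and -1.27 on slide 2 and at -2.20 on slide 3, where the 20 nM arrays were at -1.92, -1.33 and -1.34. The 0.2 nM arrays were at -0.82 and -0.83 on slide 2 and at -1.33 on slide 1, the last below every control. The 2 nM slides differed by -1.16 (SE 0.27, limma adjusted p = 0.0363). When recomputed under other settings, this value held in 12, kept its sign without passing in 9 and reversed in 1. CUST_11825_PI414333748 was at -2.87, -2.66 and -3.10 in the controls and at -2.38 and -2.04 on slide 2, where the 0.2 nM arrays were at -2.54 and -2.43. On slide 3 it was at -3.26, and the 20 nM arrays there at -3.46, -3.07 and -3.32. The 0.2 nM array on slide 1 was at -2.42, above every control. The 2 nM slides differed by -1.05 (SE 0.22, limma adjusted p = 0.0236). Over the 3 arrays the 2 nM differences from control were -0.49 for CUST_55_PI414333748 and 0.32 for CUST_11825_PI414333748, with limma adjusted p = 0.41 and 0.513.

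**Figure D5:**
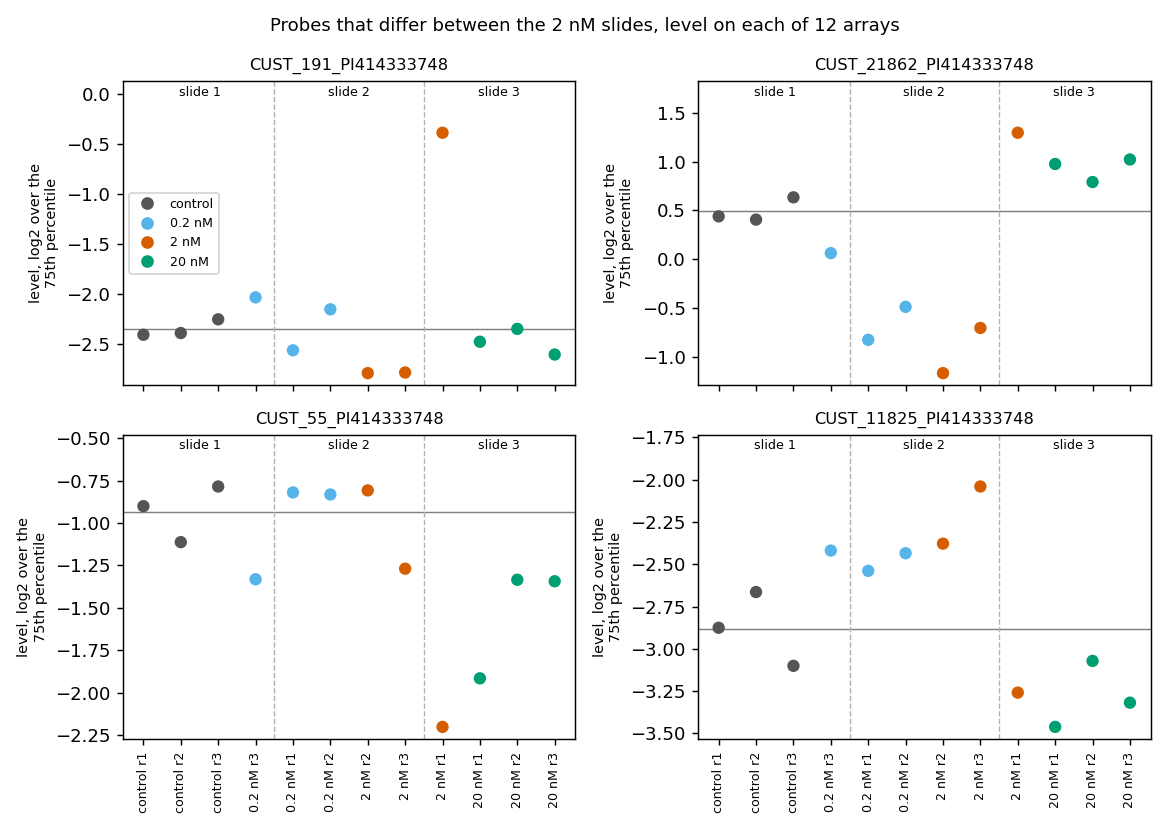
Level (log2 over the 75th percentile) of the 4 probes named for a difference between the 2 nM slides, on each of the 12 arrays ordered by slide, with the control mean as a horizontal line; each point is 1 array. CUST_191 is high on the 2 nM array of slide 3 alone (-0.39), whereas CUST_21862 is low on the 2 nM and 0.2 nM arrays of slide 2 and high on the 2 nM and 20 nM arrays of slide 3.

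Some probes crossed the background mark of the scanner software. Of all 26429 probes, 74 (0.28%) were well above background on all 3 arrays at 2 nM and on no control array, and 37 (0.14%) on all 3 controls and no array at 2 nM. The first were at least 1.88-fold higher in the median case and at least 5.07-fold in the greatest, and 34 of the 74 were called over the 3 arrays and 16 on both slides, where 2.73% and 1.25% of all tested probes were. The second were at least 1.64-fold lower in the median case and at least 3.18-fold in the greatest, with 3 called over the 3 arrays and 2 on both slides. Both sets were picked on the same arrays that give the calls, so nothing is read from these counts. These bounds set the mean of the bright group against the higher of the lowest signal well above background and the own signal on each dim array. Of the 6 arrays, 2 nM replicate 1 alone detected 331 probes, of which 15 were tested. Both arrays of slide 2 alone detected 45, of which 3 were tested. The second is the stricter demand, so these counts do not show which slide detected more. Of probes detected on all 3 controls, 100 were absent at 2 nM on slide 3 only and 83 on both arrays of slide 2 only. Of all probes, 10639 were well above background on all 6 arrays (40.3%) and 11896 on none (45%).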

How the data were processed

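Total RNA of whole larvae was hybridised to 12 single-dye arrays. The authors deposited scanner files with spot intensity on a linear scale, read with Agilent Feature Extraction 10.7.3.1 per the file headers (10.7 in the submitters' processing notes), with no step between arrays. They also deposited a table of log2 values with the same median in each column (4.34), which followed the log2 intensity of the same array (r at least 0.999 over probes). It was thus uncentred and in the same direction. Sources used here do not name the program that made it.

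Levels are the log2 of the processed intensity minus that of the 75th percentile of the custom spots on the array. Spots with outlier marks were dropped (507 to 729 on an array), and the remaining spots of a probe were averaged. The 75th percentile was 293 to 366 intensity units on the 6 arrays of the comparison, with 43.7% to 48.5% of probes well above background (over 0.5 of the unmarked spots) and 0 spots saturated. The number of arrays limits the precision. A probe was tested if 1 group or more had it well above background on every array. The test was made with limma 3.58.1 in R 4.3.3 over all 12 arrays, with group means or with means of the 6 combinations of group and slide, and Benjamini-Hochberg adjustment at 0.05. In the second model a lone array is assumed to vary like the others. Its spread comes from arrays that share group and slide, in any group of the series. It leaves out the spread between slides, which its contrasts cross. Among the tested probes 24 array values were missing, and those arrays were dropped for that probe, which left 1 probe with no value on slide 3. The fits were tested on simulated data.

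Probes were named by rule, from those well above background on all 6 arrays: called over the 3 arrays and on both slides, by the smaller slide difference, or called between slides and against control on exactly 1, by the slide difference, 2 in each direction. The comparison, lists and tests were chosen with earlier results of these data known. The normexp alternative used the median spot signal, as the files used here hold no mean signal. No pairing by replicate number was seen: deviations from the group means correlated at r = -0.0014, 0.018 and -0.0049 across probes for numbers 1, 2 and 3. The 2 nM deviations also carry the difference between slides, so a pairing could be hidden. There were 0 columns of other samples.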

Additional observations from a re-analysis of the deposited data

How the results depend on the processing

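Counts are given in the order: over 3 arrays, slide 3, slide 2, slide 3 against slide 2, both slides, where 325, 309, 1616, 959 and 149 were reported. Of 115 recomputed counts, 65 stayed within 1.5 times the reported one and 50 moved. Some of the 65 could not move, since a lone array of its group and slide adds nothing to the spread in the slide-by-slide model. Leaving out 0.2 nM replicate 3 returned the last 4 counts unchanged, and leaving out 2 nM replicate 1 did so for slide 2. Values of the probes named for a slide difference were likewise fixed without 0.2 nM replicate 3. Scaling to the median gave 174 over 3 arrays, 1408 on slide 3 and 3309 between slides, and the percentile over probes detected on all 12 arrays gave 213 over 3 arrays. Normexp gave 0 for all 5 counts in limma (2107, 4407, 642 and 115 probes at an unadjusted p under 0.05 for the first 4). In that setting 24 spots on 4 arrays had a background over 3 times above or below the median of their array. With those replaced the counts were 156 over 3 arrays, 111 on slide 3 and 58 on both. Without a filter on dim probes they were 80 over 3 arrays, 500 on slide 3 and 849 on slide 2. Limiting the test to probes detected on each of the 6 arrays gave 185 on slide 3 and 88 on both. The 6 arrays alone gave 246 on both slides. Array weights gave 1659 (914 higher, 745 lower), 836 on slide 3 and 251 on both. Slide gave 1 as a fixed and 24 as a random block. A call over the 3 arrays with no overlap, in place of a call on each slide, gave 325, since none of those 325 overlapped. With the replicate number as a block, for which no pairing was seen, the counts were 279, 44, 1452, 565 and 27. Leaving out 1 array gave 36 to 787 over 3 arrays, 97 to 630 on slide 3, 836 to 2331 on slide 2, 700 to 1473 between slides and 56 to 255 on both. Of 210 values recomputed for the 9 named probes, 166 held, 41 had the same sign without passing, among them CUST_24709_PI414333748 at -0.073 in place of -1.02 under normexp, and 3 reversed, all 3 under normexp with the backgrounds as scanned: CUST_55_PI414333748 to 0.037, CUST_11825_PI414333748 to 0.50 and CUST_14354_PI414333748 to 0.59. With the odd backgrounds replaced, CUST_24709_PI414333748 was at -0.66 (limma adjusted p = 0.00602). Of the probes named for a change on both slides, CUST_10003_PI414333748 had 8 values that did not pass and CUST_4838_PI414333748 had 7. CUST_18917_PI414333748 had 6 and CUST_24709_PI414333748 had 4. The direction of all 9 named probes held under the other scalings. Dim probes limit what can be seen: the median SE was 0.22 in the dimmest of 4 equal classes of control level and 0.12 in the brightest.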
